A study of Rattus norvegicus with 10 samples.

Results

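The nuclear genes for subunits of oxidative phosphorylation were followed in RNA from rat kidney cortex, comparing a salty diet with and without oxonic acid. Members were taken by symbol from the protein-coding rows outside the mitochondrial chromosome: the Nduf subunit names, Sdha to Sdhd, Uqcr, Cox4 to Cox8, Cyc1, Cycs and Atp5. This gave 87 of the 32545 gene rows, with 34 in complex I, 4 in complex II, 8 in complex III, 2 for cytochrome c, 21 in complex IV and 18 in complex V. Ndufa4 and its relative Ndufa4l2 were placed in complex IV, where Ndufa4 is now assigned. Subunits listed under other symbols were not analysed here. The rule used no measured value.

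Oxidative phosphorylation passes electrons from NADH and succinate through complexes I to IV to oxygen and uses the resulting proton gradient to make ATP at complex V. All subunits of complex II and most subunits of the others are encoded in the nucleus, and the remainder are encoded in the mitochondrial genome. Proximal tubule and thick ascending limb cells, which fill much of the renal cortex, are rich in mitochondria because salt reabsorption is costly in ATP.

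All animals were Dahl salt-sensitive rats (SS/JrHsdMcwi, labelled wildtype), an inbred strain whose blood pressure rises on salt, and the design names males and females without giving the sex of each library. They ate 0.4% NaCl, received telemeters at 8 to 9 weeks of age, were recorded for 4 days, and then ate 4% NaCl for 3 weeks. The oxonic acid group (5 libraries) had 2% oxonic acid, an inhibitor of the uric acid-degrading enzyme uricase, in that diet, and the vehicle group (5 libraries) had the salt diet without it. Both groups therefore share high salt, and no normal-salt group was compared. The labels do not tie each library to its own rat, so p-values measure the spread between these libraries, which may be partly technical. In whole tissue, fewer cells of a type and less RNA per cell cannot be told apart.

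The values are FPKM (fragments per kilobase of gene, scaled to library size by the authors), and a gene was tested where its mean over the 10 libraries was at least 0.5. Reads in genes, recovered from the FPKM, ranged from 14.5 to 18.5 M (mega) per library. Markers of the labelled cortex were present, with the proximal tubule phosphate transporter Slc34a1 at 1774 ± 177 FPKM with oxonic acid against 1662 ± 181 FPKM in vehicle libraries (SD, n = 5 each). Two-sided limma tests on log2(FPKM + 0.5) with Benjamini-Hochberg adjustment called 0 of 14508 genes at an adjusted p under 0.05 (0% called), while 1377 had an unadjusted p under 0.05. The library names carry numbers that fall into 3 runs: the first holds 3 oxonic acid and 0 vehicle libraries, the second 1 and 3, and the third 1 and 2. Nothing in the labels names them as batches.

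The members were among the most abundant transcripts of the tissue, and none of them passed the test between the diets. Of the 83 members that passed the filter, 70 lay in the top 10% of all tested genes by mean FPKM and 13 in the top 1%. Together the members took 2.12% to 2.49% of the reads in genes. None of the 83 passed the adjusted threshold, their smallest adjusted p (limma) being 0.484. At an unadjusted p under 0.05 there was 1 member (1.2%), against 9.49% of all genes tested. That member was higher with oxonic acid, where the share of all genes was 4.32%, and 0 members were lower, against 5.17% of all genes. In 0 members did the 5 libraries of the groups fail to overlap, against 1.91% of all genes.

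The signs were mixed. A log2 difference above 0 (oxonic acid minus vehicle) was seen in 45 of 83 members (54.2%), against 51.8% of all genes tested. The median log2 difference was 0.0036 over the members and 0.0053 over all genes. This split moved with the scaling: with each library set to the same number of reads in genes, 22 of 83 members (26.5%) and 42.4% of all genes were above 0, and the medians were -0.03 for both. It also moved with single libraries, from 69 of 83 above 0 without vehicle library 4 to 29 without vehicle library 2. Within the second run of library numbers 47 of 83 members were above 0 (median 0.02), and within the third 36 (median -0.03). No direction can therefore be given for the members as a whole.

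The precision behind these small differences was high for the abundant members. The 70 members with a mean of at least 50 FPKM, a level chosen after the values were seen, had fold differences (limma estimate, oxonic acid over vehicle) between 0.929 for Cox5b and 1.07 for Cox7b. In 69 of these 70 the 95% limma interval lay within 1.25-fold in both directions, against 72% of the 1708 nuclear genes of that level. Of the 70, 68 differed by less than 0.1 on the log2 scale, against 63.2% of those 1708 genes. None of the 70 had an unadjusted p under 0.05, against 10.2% of the 1708. Their median spread within groups was 0.0968 log2 units (SD), against 0.121 for all nuclear genes of that level. The 1708 genes include the 70 members and share only the lower limit of 50 FPKM, without further matching for level. These contrasts are therefore not shown to be particular to the members. Over all 83 members, 71 intervals lay within 1.25-fold and 76 within 1.5-fold.

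**Figure D1:**
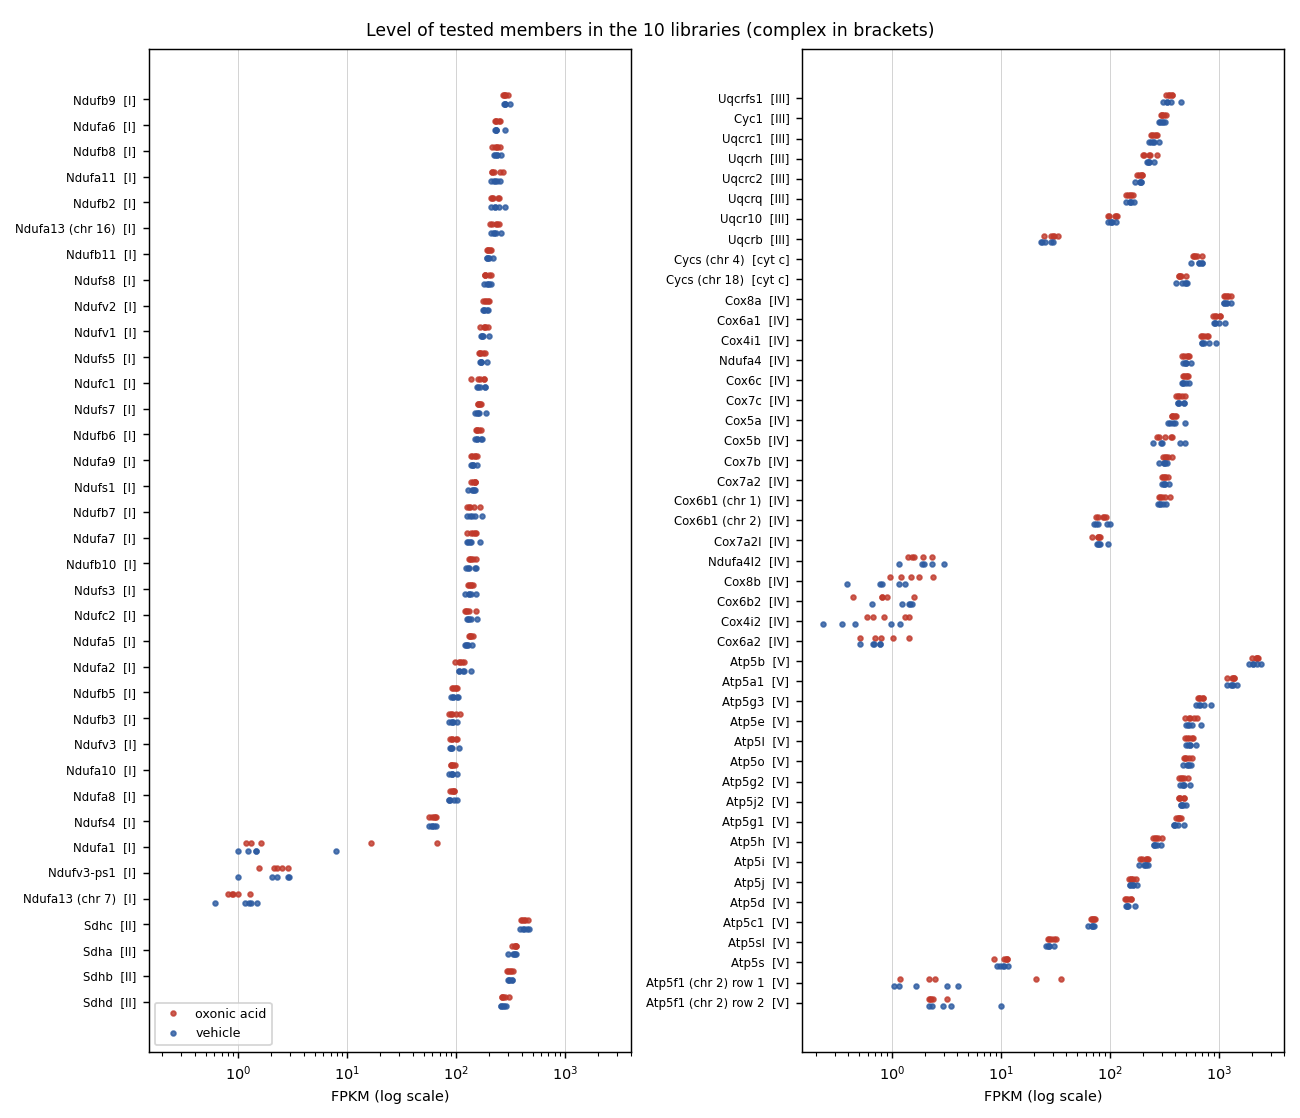
FPKM (log scale) of 82 tested members in the 10 libraries, oxonic acid in red and vehicle in blue, 1 point per library, with the complex in brackets; Atp5f1 row 1 starts at 208408890 and row 2 at 208566385 on chromosome 2. Most members form narrow columns of overlapping points above 50 FPKM, while Ndufa1, both Atp5f1 rows and the tissue isoforms of complex IV lie low and spread widely.

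Complex I takes electrons from NADH. Its core nuclear subunits carry the flavin and the iron-sulfur clusters or bind quinone, and those described here had means between 134 (Ndufs3) and 192 FPKM (Ndufs8). Ndufs1, the large iron-sulfur subunit at the entry of the electron path, measured 150, 142, 136, 149 and 147 FPKM in oxonic acid libraries 1 to 5 and 146, 128, 138, 148 and 143 FPKM in vehicle libraries 1 to 5. The groups overlapped almost fully, the log2 difference was 0.04 (95% interval -0.07 to 0.15) and the adjusted p (limma) was 0.815. Ndufv1, which binds NADH and the flavin, averaged 181 ± 11.7 FPKM with oxonic acid against 178 ± 13.0 FPKM in vehicle libraries (SD, n = 5 each). The log2 differences of Ndufv1, Ndufv2, Ndufs3, Ndufs7 and Ndufs8 ran from -0.02 (Ndufs8) to 0.04 (Ndufv2), and each of these intervals stayed within 1.25-fold.

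Over the whole of complex I, 20 of 33 tested members had a difference above 0, with a median log2 difference of 0.01. Ndufb9, a supernumerary subunit, was the most abundant at 280 ± 9.81 FPKM with oxonic acid against 284 ± 15.6 FPKM in vehicle libraries (SD, n = 5 each). Ndufa2, a small subunit of the peripheral arm, had the largest negative difference among members with a mean of at least 5 FPKM. It measured 117, 96.1, 109, 113 and 105 FPKM in oxonic acid libraries 1 to 5 and 106, 115, 117, 136 and 106 FPKM in vehicle libraries 1 to 5. Vehicle library 4 was highest and oxonic acid library 2 lowest, and the log2 difference was -0.10 (95% interval -0.27 to 0.07, adjusted p 0.684, limma).

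Ndufa5, another peripheral arm subunit, had the smallest p of the complex. Its values were 142, 130, 133, 133 and 135 FPKM in oxonic acid libraries 1 to 5 and 123, 127, 119, 126 and 140 FPKM in vehicle libraries 1 to 5. Of the 5 vehicle libraries, 4 lay below every oxonic acid library, and vehicle library 5 lay second highest of all. The log2 difference was 0.08 (95% interval -0.03 to 0.20), with an unadjusted p of 0.128 and an adjusted p of 0.606 (limma). With array quality weights the unadjusted p (limma) was 0.0356 and without vehicle library 5 it was 0.0265. Without vehicle library 3 it was 0.284. Smaller differences came with limma voom on reads (0.05, unadjusted p 0.373) and with scaling to equal reads in genes (0.05, unadjusted p 0.334, limma). With the runs of library numbers as a factor the difference was 0.07 (unadjusted p 0.309, limma). The other tested subunits of complex I above 50 FPKM stood between 61.2 (Ndufs4) and 238 FPKM (Ndufa6) on average.

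Complex II, succinate dehydrogenase, links the tricarboxylic acid cycle to the chain. Sdha, the flavin-bearing catalytic subunit, measured 345, 353, 320, 354 and 343 FPKM in oxonic acid libraries 1 to 5 and 335, 296, 327.7, 353 and 343 FPKM in vehicle libraries 1 to 5. The groups overlapped, with vehicle library 2 lowest, and the log2 difference was 0.05 (95% interval -0.07 to 0.18, adjusted p 0.776, limma). The iron-sulfur subunit Sdhb averaged 309 ± 15.7 FPKM with oxonic acid against 311.2 ± 11.7 FPKM in vehicle libraries (SD, n = 5 each). The membrane anchors Sdhc and Sdhd had log2 differences of -0.02 and 0.04. All 4 intervals lay within 1.25-fold.

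Complex III passes electrons from quinol to cytochrome c. Its redox subunits Cyc1 (cytochrome c1) and Uqcrfs1 (the Rieske iron-sulfur protein) averaged 308 ± 13.6 and 354 ± 17.1 FPKM with oxonic acid, against 302 ± 16.4 and 358 ± 54.8 FPKM in vehicle libraries (SD, n = 5 each). The wider vehicle spread of Uqcrfs1 came from library 4 at 449 FPKM. The large core proteins Uqcrc1 and Uqcrc2 had log2 differences of 0.02 and 0.03, and the hinge protein Uqcrh had the largest negative one of the complex, -0.03.

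Uqcrb, a quinone-binding subunit, had the largest positive difference and by far the lowest level of complex III. It measured 30.7, 24.8, 33.3, 28.9 and 30.2 FPKM in oxonic acid libraries 1 to 5 and 23.9, 25.7, 23.5, 29.1 and 30.3 FPKM in vehicle libraries 1 to 5. The groups overlapped, since oxonic acid library 2 lay among the low vehicle libraries and vehicle libraries 4 and 5 among the high ones. The log2 difference was 0.16 (95% interval -0.05 to 0.36), with an unadjusted p of 0.121 and an adjusted p of 0.599 (limma). With array quality weights Uqcrb differed by 0.24 (unadjusted p 0.0203, limma), and leaving out 1 library gave 0.11 to 0.22 (unadjusted p 0.265 to 0.0309). Smaller differences came with limma voom on reads (0.13, unadjusted p 0.208) and with scaling to equal reads in genes (0.12, unadjusted p 0.214, limma). With the runs of library numbers as a factor the difference was 0.14 (unadjusted p 0.235, limma). Of the 8 members of complex III, 5 were above 0, with a median of 0.02.

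Cytochrome c carries electrons from complex III to complex IV. The row with introns on chromosome 4 (80331227 to 80333326, in the deposited table's own coordinates of unstated build) measured 700, 579, 602, 629 and 593 FPKM in oxonic acid libraries 1 to 5 and 665, 699, 655, 702 and 557 FPKM in vehicle libraries 1 to 5. A row of the same symbol on chromosome 18 (62476383 to 62476700), 318 bp long with a single exon, stood at 462 FPKM on average against 638 FPKM for the first. Because near-identical copies can share reads, how the reads divide between these rows is uncertain. Both had differences below 0, with log2 differences of -0.08 and -0.07 and adjusted p of 0.763 and 0.775 (limma). The highest and the lowest value of the chromosome 4 row were both in vehicle libraries, 4 and 5.

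Complex IV reduces oxygen. Cox8a and Cox6a1, small supernumerary subunits, and Cox4i1, the largest nuclear subunit, led it at 1184, 969 and 758 FPKM on average. Cox4i1 measured 799, 689, 697, 732 and 784 FPKM in oxonic acid libraries 1 to 5 and 729, 700, 699, 934 and 815 FPKM in vehicle libraries 1 to 5. Vehicle library 4 stood above all others, and the log2 difference was -0.06 (95% interval -0.26 to 0.14, adjusted p 0.841, limma). Cox7a2 averaged 319 ± 17.4 FPKM with oxonic acid against 318 ± 19.6 FPKM in vehicle libraries (SD, n = 5 each), and Ndufa4 averaged 501 ± 30.9 and 503 ± 31.0 FPKM.

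Cox7b and Cox5b marked the ends of the range among abundant members. Cox7b, a small membrane subunit, measured 375, 306.4, 331, 320 and 340 FPKM in oxonic acid libraries 1 to 5 and 311.2, 281, 314, 322 and 338 FPKM in vehicle libraries 1 to 5, a log2 difference of 0.09 (95% interval -0.05 to 0.24, adjusted p 0.658, limma). Cox5b, the zinc-binding subunit, had the widest spread of the 70 abundant members. It measured 373, 324, 280, 271 and 361 FPKM in oxonic acid libraries 1 to 5 and 440, 249, 294, 493 and 301 FPKM in vehicle libraries 1 to 5. The vehicle group thus held both the highest and the lowest libraries, and the log2 difference of -0.11 had a 95% interval of -0.51 to 0.29, the only one of the 70 beyond 1.25-fold. Over complex IV 9 of 18 tested members were above 0, with a median log2 difference of -0.0018.

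Complex V makes ATP. Atp5b, the catalytic beta subunit, was the most abundant member, at 2295, 2223, 2022, 2193 and 2244 FPKM in oxonic acid libraries 1 to 5 and 2080, 1884, 2046, 2458 and 2235 FPKM in vehicle libraries 1 to 5. The highest and lowest values again lay in the vehicle group, and the log2 difference was 0.04 (95% interval -0.14 to 0.22, adjusted p 0.891, limma). Atp5a1, the alpha subunit, averaged 1324 ± 76.6 FPKM with oxonic acid against 1324 ± 101 FPKM in vehicle libraries (SD, n = 5 each). Atp5g1, Atp5g2 and Atp5g3 encode the same c-ring protein, and Atp5g3 led them at 694 FPKM on average. Atp5g3 had a log2 difference of -0.06 (95% interval -0.24 to 0.13), Atp5g2 of -0.04 and Atp5g1 of 0.05. Atp5c1, the rotating gamma subunit, had the smallest spread of the 70 abundant members at 0.0596 log2 units (SD within groups). Of the 18 members of complex V, 9 were above 0, with a median of -0.0037. Atp5s and Atp5sl match the name rule without being subunits of the enzyme, and their log2 differences were 0.03 and 0.08.

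**Figure D2:**
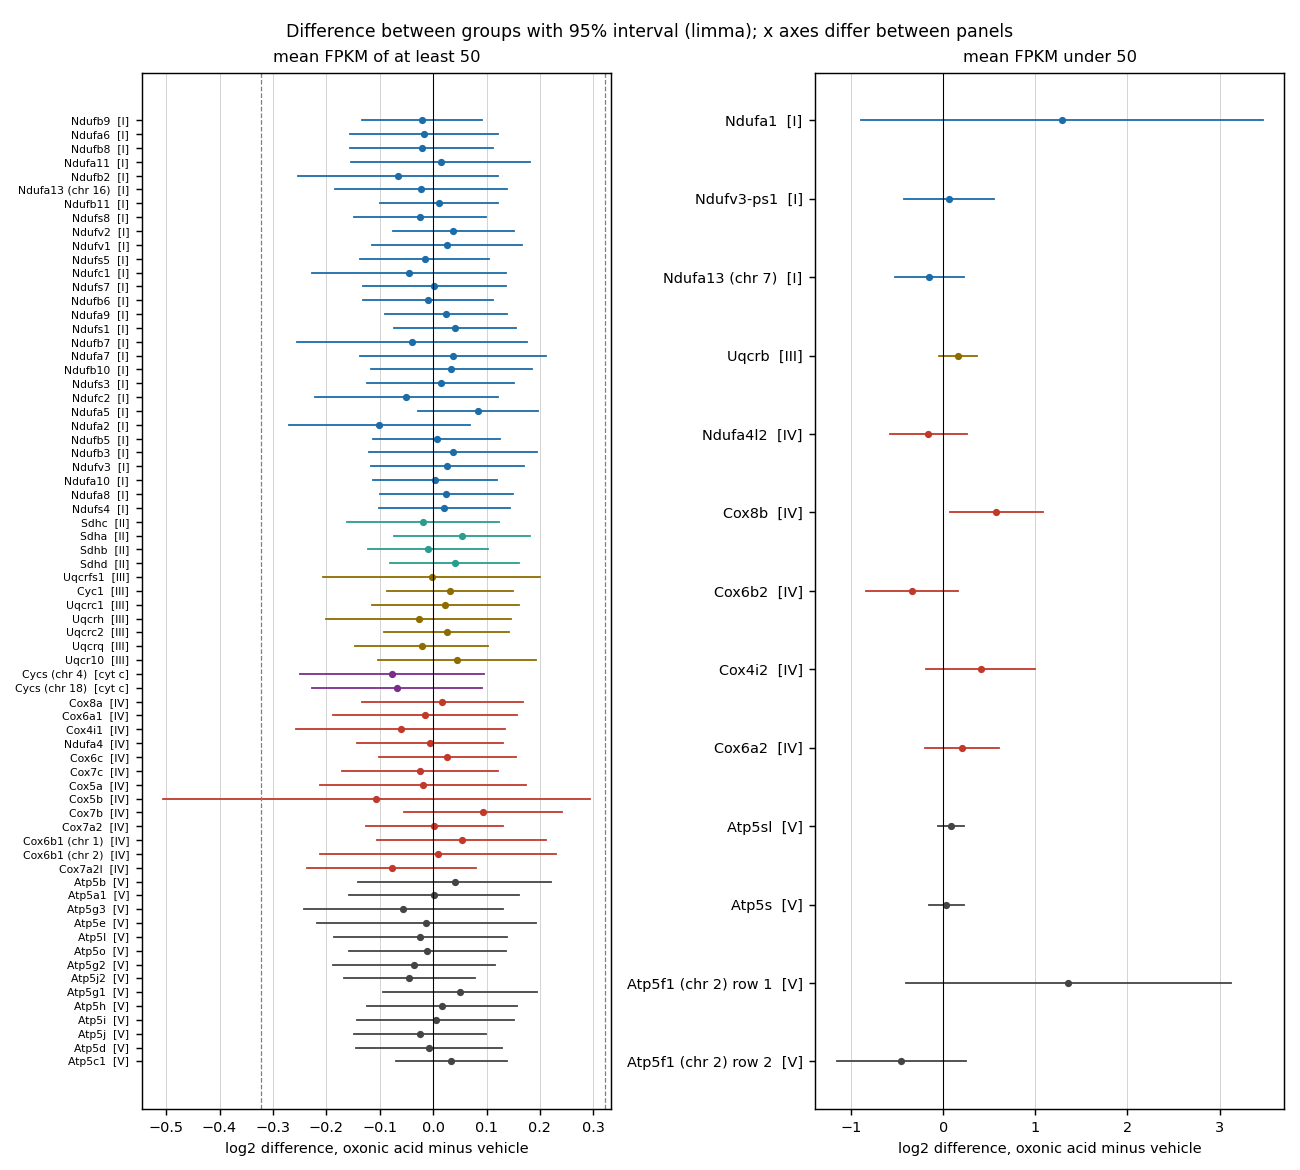
Log2 difference (oxonic acid minus vehicle, log2(FPKM + 0.5)) with its 95% limma interval for 69 members with a mean of at least 50 FPKM (left, dashed lines at 1.25-fold) and the 13 tested members below it (right, with its own wider axis). On the left 68 of 69 intervals lie between the dashed lines, Cox5b being the exception, and on the right the interval of Cox8b is the only one that leaves out 0.

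A few members listed at low levels varied widely from library to library. Ndufa1, a complex I subunit on the X chromosome (124513269 to 124516705) with a listed length of 213 bp, measured 1.18, 16.5, 65.8, 1.29 and 1.62 FPKM in oxonic acid libraries 1 to 5 and 7.91, 0.989, 1.45, 1.22 and 1.45 FPKM in vehicle libraries 1 to 5. These values rest on 4 to 229 reads per library, and 2 oxonic acid libraries and 1 vehicle library stood apart from the other 7. Whether this row gives the full level of the gene is not known, so it is not shown that Ndufa1 is low in this tissue. The log2 difference was 1.29 with a 95% interval of -0.89 to 3.47 and an adjusted p of 0.686 (limma). It was 0.42 without oxonic acid library 3 and -0.27 with the runs of library numbers as a factor, both high oxonic acid libraries being in the first run, which holds no vehicle library.

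Atp5f1, subunit b of the peripheral stalk, has 2 rows of equal length (2063 bp) on chromosome 2. The first (208408890 to 208420163) measured 35.5, 20.9, 1.19, 2.50 and 2.17 FPKM in oxonic acid libraries 1 to 5 and 1.66, 1.05, 3.20, 4.04 and 1.17 FPKM in vehicle libraries 1 to 5. The second (208566385 to 208577146) measured 2.38, 3.24, 2.22, 2.21 and 2.31 FPKM in oxonic acid libraries and 2.94, 2.20, 2.33, 3.50 and 9.94 FPKM in vehicle libraries. Different libraries were high in each: oxonic acid libraries 1 and 2 in the first, vehicle library 5 in the second. Their log2 differences were 1.36 (95% interval -0.40 to 3.12) and -0.46 (-1.16 to 0.24), with adjusted p of 0.599 and 0.647 (limma). With the runs as a factor the first row differed by 0.18, its 2 high libraries being in the run with 0 vehicle libraries. Without vehicle library 5 the second row differed by -0.12. Summed, the rows gave 14.9 ± 15.5 FPKM with oxonic acid against 6.41 ± 3.06 FPKM in vehicle libraries (SD, n = 5 each). The RefSeq table lists a single gene, Atp5pb, for this symbol, so the split of reads between the rows is uncertain. Whether the sum gives the full level of the gene is not known either.

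**Figure D3:**
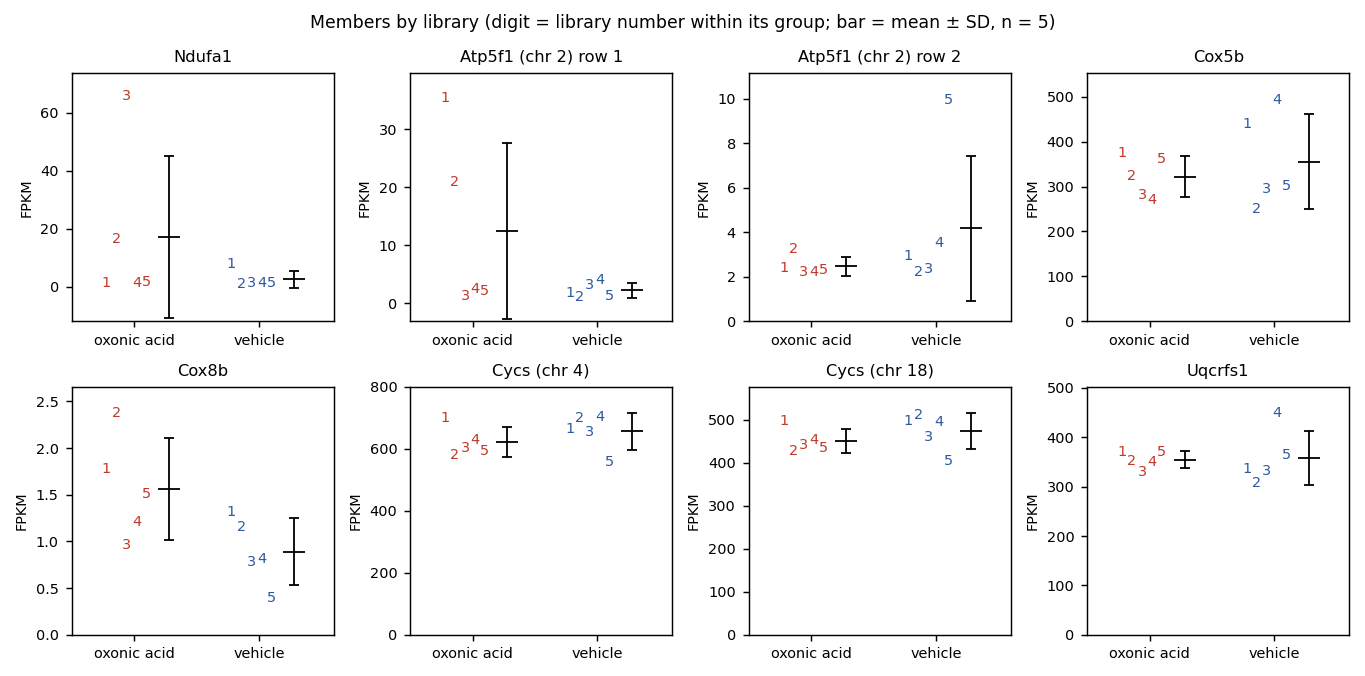
FPKM of 8 rows by group, each digit being a library number within its group and the bar beside it the mean ± SD (n = 5); Atp5f1 row 1 starts at 208408890 and row 2 at 208566385. In Ndufa1 and Atp5f1 1 to 3 libraries stand far above the others, as with 65.8 FPKM in oxonic acid library 3 for Ndufa1. In Uqcrfs1 and both Cycs rows the groups overlap, with vehicle library 4 highest for Uqcrfs1 at 449 FPKM.

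Other copies ran from absent to abundant. The single-exon Ndufa13 row on chromosome 7 averaged 1.07 FPKM against 227 FPKM for the row with introns on chromosome 16, and Ndufv3-ps1 averaged 2.23 FPKM against 93.3 FPKM for Ndufv3. The single-exon Cox6b1 row on chromosome 2 averaged 83.9 FPKM against 305 FPKM for the row on chromosome 1, and reads may have been split between them. These copies had log2 differences of -0.15, 0.07 and 0.01. Of the 4 members below the filter, Cox6c1, Cox7b2 and Cox8c were listed at 0 in all 10 libraries, and Ndufb4l1 had 1 read in 1 oxonic acid library (0.156 FPKM). A count of 0 allows up to 3 reads, worth at most 0.241 FPKM for Cox6c1, 0.862 FPKM for Cox7b2 and 0.375 FPKM for Cox8c in any library, counting error only. Of all members, 16 overlap another tested gene, among them Atp5j opposite Gabpa and Cox7c on the strand of LOC252890, and their reads may include the neighbour's.

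Complex IV and Ndufa4 have isoforms made mainly in other tissues or states: Cox4i2 in lung and under low oxygen, Cox6a2 and Cox8b in heart and skeletal muscle, Cox6b2 in testis, and Ndufa4l2 under hypoxia. The ubiquitous isoforms stood 261 times (Ndufa4 over Ndufa4l2) to 1228 times (Cox6a1 over Cox6a2) above them in mean FPKM. The 5 low isoforms averaged 0.789 to 1.92 FPKM and rested on 2 to 46 reads per library.

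Cox8b was the 1 member with an unadjusted p under 0.05. It measured 1.78, 2.37, 0.959, 1.21 and 1.51 FPKM in oxonic acid libraries 1 to 5 and 1.32, 1.16, 0.774, 0.816 and 0.388 FPKM in vehicle libraries 1 to 5, on 2 to 11 reads. The groups overlapped, with oxonic acid library 3 below vehicle libraries 1 and 2. The log2 difference was 0.57 (95% interval 0.07 to 1.08), with an unadjusted p of 0.0293 and an adjusted p of 0.484 (limma), which did not pass. The unadjusted p (limma) was 0.0541 with array quality weights, 0.151 with the runs as a factor, and 0.0134 to 0.0772 with 1 library left out. Within the second and the third run Cox8b differed by 0.12 and 0.90 on the log2 scale, values with no test. Against Cox8a, the log2 ratio was -9.21 ± 0.375 with oxonic acid and -9.77 ± 0.449 with vehicle (SD, n = 5 each), a difference of 0.56 (exact permutation over libraries, two-sided, p = 0.0556; adjusted p = 0.278 over 5 ratios). With 1 library left out the ratio differed by 0.40 (without vehicle library 5, p = 0.135) to 0.68 (without vehicle library 1, p = 0.0397), both unadjusted exact permutation values.

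Markers of the tissues that make Cox8b were set beside it. Of the heart and skeletal muscle markers, 4 of the 6 tested had differences above 0, and their summed level was 17.6 to 26.0 FPKM with oxonic acid and 17.4 to 25.3 FPKM with vehicle. The muscle genes Ckm, Myh6 and Myh7 reached at most 0.306, 0.149 and 0.0609 FPKM in any library. Of the brown fat markers, 4 of the 5 tested were above 0, with summed levels of 25.3 to 48.0 FPKM and 27.7 to 43.7 FPKM. The largest parts of this sum were Ppargc1a, also listed below among biogenesis regulators, and Fabp4. Ppargc1a averaged 14.8 FPKM with oxonic acid against 12.1 FPKM with vehicle, and Fabp4 13.1 against 13.8 FPKM. The log2 differences were 0.28 for Ppargc1a, 0.28 for Adipoq, 0.16 for Cpt1b, 0.0013 for Cidea and -0.16 for Fabp4. The sum is therefore no specific measure of brown fat. Ucp1, which defines brown fat, was listed at 0 in 9 libraries and at 0.306 FPKM in oxonic acid library 3. The part of such cells in the Cox8b value was not tested.

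The other ratios did not pass either. Cox4i2 measured 1.43, 0.587, 1.33, 0.677 and 0.850 FPKM in oxonic acid libraries 1 to 5 and 0.456, 1.20, 0.351, 0.987 and 0.235 FPKM in vehicle libraries 1 to 5, so that the groups overlapped widely. The log2 ratio of Cox4i2 to Cox4i1 differed by 0.46 (exact permutation p = 0.143, adjusted p = 0.304). With 1 library left out it differed by 0.30 (without vehicle library 5, p = 0.310) to 0.66 (without vehicle library 2, p = 0.0238), both unadjusted exact permutation values. The ratio of Cox6a2 to Cox6a1 differed by 0.22 (exact permutation p = 0.254, adjusted p = 0.317), that of Cox6b2 to Cox6b1 by -0.39 (exact permutation p = 0.183, adjusted p = 0.304), and that of Ndufa4l2 to Ndufa4 by -0.16 (exact permutation p = 0.532, adjusted p = 0.532). The smallest p that 5 libraries against 5 can give is 0.00794.

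Promoter sequence, which the name rule did not use, was searched for letters typical of such genes. NRF1 (nuclear respiratory factor 1), the ETS factor GABP (also called NRF2) and YY1 are textbook activators of respiratory chain genes, whereas many tissue-specific genes have a TATA box. RefSeq promoters (build GRCr8, 250 bases before to 50 after the first listed start) were matched for 69 of the 79 distinct symbols with introns, and both strands were searched. The NRF1 letters GCGCATGCG occurred in 7 of the 69 (10.1%) and in 2.03% of 19005 protein-coding promoters. The ETS letters CCGGAAG occurred in 20 (29%) against 11.2%, and the YY1 letters AAGATGGCG in 9 (13%) against 2.29%. TATAAA occurred in 5 (7.25%) against 13.1%. The 5 isoforms with a matched promoter were Cox6a2, Cox6b2, Cox8b, Cox8c and Ndufa4l2, while Cox4i2 was not matched. Among these 5, 0 held the NRF1, ETS or YY1 letters and 1, Cox8b, held TATAAA. The other 4 members with TATAAA were Atp5l, Ndufa7, Ndufa2 and Uqcr10, at 541, 139, 112 and 105 FPKM on average. Atp5b, at 2168 FPKM, held none of these letters. A match is a description of letters and not evidence of binding.

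Of these, 3 promoters, picked as examples after levels and letters were seen, are given as the 250 bases before the start on the minus strand, with matches in capitals. That of Atp5j, coupling factor 6 of the peripheral stalk (chr11:37375102-37375351, RefSeq symbol Atp5pf), holds the YY1 letters beginning 111 bases and the ETS letters beginning 84 bases before the start. That of Cox8a (chr1:213833624-213833873) holds the ETS letters on the opposite strand 57 and 19 bases before the start. That of Cox8b (chr1:205408274-205408523) holds TATAAA 39 bases before the start.
Atp5j: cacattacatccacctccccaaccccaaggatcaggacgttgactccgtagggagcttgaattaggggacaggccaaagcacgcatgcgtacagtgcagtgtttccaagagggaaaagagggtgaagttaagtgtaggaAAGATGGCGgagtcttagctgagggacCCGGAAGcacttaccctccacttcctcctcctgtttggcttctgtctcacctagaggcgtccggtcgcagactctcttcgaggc
Cox8a: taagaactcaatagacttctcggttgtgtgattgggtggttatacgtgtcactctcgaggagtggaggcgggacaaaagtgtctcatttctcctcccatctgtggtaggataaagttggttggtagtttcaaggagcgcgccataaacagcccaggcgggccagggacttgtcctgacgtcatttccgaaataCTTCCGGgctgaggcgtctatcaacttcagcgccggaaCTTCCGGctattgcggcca
Cox8b: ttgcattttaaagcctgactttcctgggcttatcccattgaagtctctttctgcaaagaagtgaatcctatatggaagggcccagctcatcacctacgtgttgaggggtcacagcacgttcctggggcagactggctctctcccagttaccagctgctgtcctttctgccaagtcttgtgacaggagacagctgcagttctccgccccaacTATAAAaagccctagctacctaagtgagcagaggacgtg
The mean levels of Atp5j, Cox8a and Cox8b were 161, 1184 and 1.23 FPKM.

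The abundant members varied together from library to library. Over the 2415 pairs among the 70, the median Pearson r of deviations from the group means was 0.676, and 97.8% of pairs were above 0; the pairs share libraries and scaling, and this is a description over 10 libraries. It was 0.688 within a complex and 0.672 between complexes. The same value was not computed for all nuclear genes of that level, so it is not shown to be particular to the members. The level of the 83 members, taken per library as the median log2 deviation from each gene's mean, was 0.09, -0.06, -0.05, -0.04 and 0.05 in oxonic acid libraries 1 to 5. It was -0.04, -0.10, -0.04, 0.14 and 0.01 in vehicle libraries 1 to 5. The highest and the lowest level thus both lay in the vehicle group. Vehicle library 4 held the highest value of 44 of the 83 members, and vehicle library 2 the lowest of 37. Among the 70 abundant members vehicle library 4 was highest in 43, and among all 1708 nuclear genes of that level it was highest in 47.7%.

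The messenger RNAs of the mitochondrial genome, which encode the partner subunits of complexes I, III, IV and V, are set beside the nuclear members. Of these 13 genes, 12 had differences above 0, with a median log2 difference of 0.20. At an unadjusted p under 0.05 (limma) 3 were higher, against 4.32% of all genes tested, and 0 were lower, against 5.17%. None passed the adjusted threshold (smallest adjusted p 0.414, limma). Vehicle library 4, the highest for the nuclear members, was lowest for 10 of the 13, at a level of -0.35 against -0.08 to 0.03 in the other vehicle libraries and 0.01 to 0.19 with oxonic acid. The subunit gene Mt-nd2 averaged 5843 ± 279 FPKM with oxonic acid against 4890 ± 423 FPKM in vehicle libraries (SD, n = 5 each), a log2 difference of 0.26 (adjusted p 0.414, limma). Mt-cox3 had a log2 difference of 0.27 (adjusted p 0.495, limma). The genes of this genome took 11.6% to 13.5% of reads in genes with oxonic acid and 9.23% to 12.1% with vehicle. The difference between the nuclear and mitochondrial sets was not tested.

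**Figure D4:**
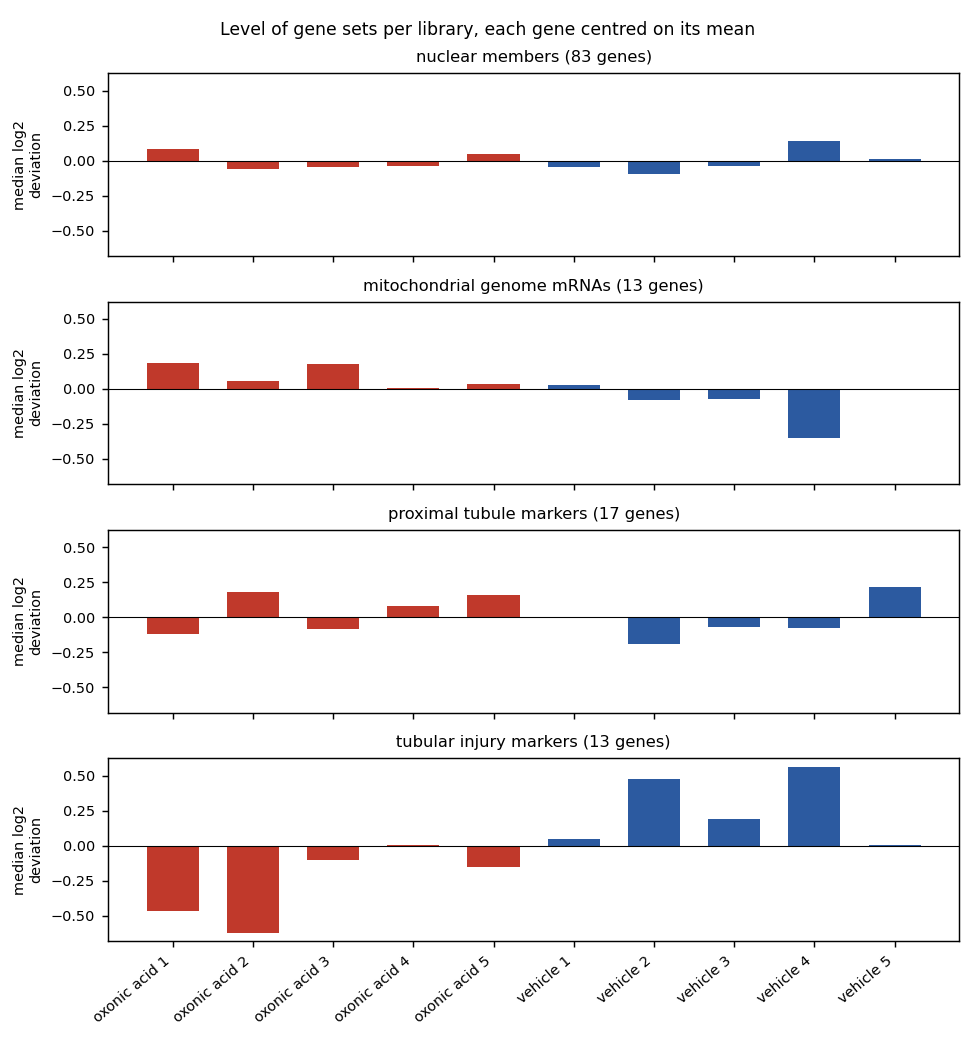
Median log2 deviation from each gene's mean over the 10 libraries, per library, for the 83 nuclear members, the 13 mitochondrial messenger RNAs, 17 proximal tubule markers and 13 tubular injury markers; oxonic acid in red, vehicle in blue. The nuclear members stay between -0.10 and 0.14 in both groups, vehicle library 4 is highest for them and lowest (-0.35) for the mitochondrial messenger RNAs, and the injury markers run from -0.62 to 0.56.

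Markers of cell types and injury had larger median differences than the members. Of 17 proximal tubule markers, 13 had differences above 0 (median 0.09), with summed levels of 8577 to 10219 FPKM with oxonic acid and 7150 to 9558 FPKM with vehicle. Slc7a13 and Slc5a1, transporters of its straight segment, had log2 differences of 0.70 and 0.22 (adjusted p 0.547 and 0.560, limma). Of 13 tubular injury markers, 12 were below 0 (median -0.59). At an unadjusted p under 0.05 (limma) 9 were lower, against 5.17% of all genes tested, and 0 were higher, against 4.32%. Their summed levels were 1005 to 1864 FPKM with oxonic acid and 1707 to 3891 FPKM with vehicle, and Krt20 was under 0.5 FPKM in every library. The injury gene Havcr1 averaged 13.0 ± 6.93 FPKM with oxonic acid against 28.2 ± 10.3 FPKM in vehicle libraries (SD, n = 5 each), and Hmox1 and Timp1 had log2 differences of -0.78 and -0.67 (both adjusted p 0.333, limma). Median log2 differences were 0.26 for thick ascending limb, 0.30 for distal convoluted tubule, 0.34 for principal cell and 0.06 for intercalated cell markers. They were 0.36 for inner medulla and thin limb (8 of 8 above 0), 0.26 for podocyte and 0.11 for endothelial markers. Those of macrophages, T and NK cells, and fibroblasts had medians of -0.22, -0.36 and -0.28. Per library, the inner medulla and thin limb level ran from -0.53 to 0.94 with oxonic acid, above 0 only in libraries 1 and 3. With vehicle it ran from -0.45 to 0.18. The thick ascending limb level ran from -0.35 to 0.54 with oxonic acid and from -0.22 to 0.15 with vehicle. The part of tissue makeup in the members' values was not tested.

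Of the genes that build, feed or regulate the chain, 0 passed the adjusted threshold, and their counts are given beside the 4.32% higher and 5.17% lower of all genes. Of 38 tested assembly factors 1 was higher and 1 lower at an unadjusted p under 0.05, with 19 above 0 and a median of -0.0017. Lyrm7, an assembly factor for the Rieske protein of complex III, averaged 9.78 ± 0.856 FPKM with oxonic acid against 8.58 ± 0.737 FPKM in vehicle libraries (SD, n = 5 each) (adjusted p 0.513, limma). Sdhaf4, which helps assemble Sdha into complex II, averaged 58.2 ± 1.18 FPKM with oxonic acid against 66.1 ± 5.54 FPKM in vehicle libraries (SD, n = 5 each) (adjusted p 0.398, limma), while Sdha itself differed by 0.05 on the log2 scale.

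Of 19 biogenesis regulators 1 was higher and 0 lower at an unadjusted p under 0.05, with a median of 0.02. Ppargc1a, the coactivator PGC-1 alpha, averaged 14.8 ± 2.12 FPKM with oxonic acid against 12.1 ± 1.58 FPKM in vehicle libraries (SD, n = 5 each), a log2 difference of 0.28 (unadjusted p 0.0261, adjusted p 0.473, limma). Esrrg, the estrogen-related receptor gamma that works with it, had a log2 difference of 0.14 (adjusted p 0.525, limma). Of 18 genes of the tricarboxylic acid cycle and pyruvate dehydrogenase 14 were above 0 (median 0.02), 1 of them at an unadjusted p under 0.05. Ogdh, a subunit of the 2-oxoglutarate dehydrogenase complex, averaged 48.1 ± 3.93 FPKM with oxonic acid against 41.7 ± 4.25 FPKM in vehicle libraries (SD, n = 5 each) (adjusted p 0.469, limma), and Dlat, of pyruvate dehydrogenase, had a log2 difference of 0.11 (adjusted p 0.532, limma).

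Of 8 tested genes for ATP and ADP exchange, uncoupling and ATPase inhibition, 2 were lower and 0 higher at an unadjusted p under 0.05 (median -0.03). Ucp2, an uncoupling protein family carrier, averaged 31.5 ± 3.24 FPKM with oxonic acid against 40.5 ± 4.94 FPKM in vehicle libraries (SD, n = 5 each), a log2 difference of -0.35 (adjusted p 0.335, limma). Slc25a4, an ADP/ATP carrier, had a log2 difference of -0.18 (adjusted p 0.441, limma). Of 18 genes of alternative electron entry and quinone synthesis 12 were below 0 (median -0.05), and 1 was lower at an unadjusted p under 0.05. That gene, Coq4 of coenzyme Q synthesis, averaged 6.27 ± 0.587 FPKM with oxonic acid against 8.35 ± 0.821 FPKM in vehicle libraries (SD, n = 5 each) (adjusted p 0.333, limma), and Gpd2, glycerol-3-phosphate dehydrogenase, had a log2 difference of 0.23 (adjusted p 0.568, limma).

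Mitochondrial ribosomal proteins, which make the mitochondrially encoded subunits, had 55 of 73 tested members below 0 (median -0.04), with 3 lower and 0 higher at an unadjusted p under 0.05. Mrpl50 and Mrpl55 had log2 differences of -0.17 and -0.22 (adjusted p 0.502 and 0.521, limma). Vehicle library 4 had the highest level of this list, 0.21, as it did for the nuclear subunits.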

How the data were processed

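The deposited table gave FPKM per gene and library, computed by the authors; the submitters' processing notes name HISAT2 2.0.5, featureCounts 1.5.0-p3, StringTie 1.3.3b and fastp, with no role stated. No genome build is given in the labels or headers, and the labels' protocols describe directional and non-directional libraries, so the use of strand is unknown. Multiplying FPKM by gene length returned whole reads for 100% of values (tolerance 0.01), which gave the depth and served for a count-based alternative (limma voom). FPKM is a relative measure that carries no weight for read depth. No pair of libraries agreed within sampling noise (lowest chi-square per degree of freedom 4.99).

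Columns were matched to samples by library name, and 0 sample columns were left unmapped. Tests covered the 14508 of 32545 genes averaging 0.5 FPKM or more, on log2(FPKM + 0.5), which understates changes of low genes, with limma 3.58.1 (lmFit, eBayes with trend) in R 4.3.3, with two-sided p adjusted by Benjamini-Hochberg at a threshold of 0.05. Isoform ratios were compared by exact permutation over 252 arrangements with scipy 1.17.1 in Python 3.11.15, and figures were drawn with matplotlib 3.10.9. The limma fit was also run on simulated data, with noise drawn separately for each gene and without an effect of the library-number runs. That simulation therefore says nothing about shared variation or runs in these data. Members, gene lists and tests were chosen with earlier results of these data known, and lists are described by counts and medians without a test. Members named are a fixed set (core, catalytic and isoform genes), the most abundant and the extremes of each complex, those with an unadjusted p under 0.05, those below the filter and the 2 smallest p of each pathway list; Ndufa5, Uqcrb, Atp5f1, Ndufa1, copies and genes of marker lists were also described after their values were seen. Alternatives covered the pseudocount, the filter, the scaling, the test, blocks and leaving out libraries. The values of 1 member are not reported here and not drawn; it stays in the counts.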

Additional observations from a re-analysis of the deposited data

Results flagged for a closer look

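Within each group of 5 libraries, a library was singled out where its gap to the nearest other exceeded Dixon's 95% critical value; 192 groups were examined, and chance alone singles out about 1 in 20. Among low members, the Ndufa1 values of 65.8 FPKM (oxonic acid library 3) and 7.91 FPKM (vehicle library 1) stood apart. So did the second Atp5f1 row (start 208566385) at 3.24 FPKM in oxonic acid library 2 and 9.94 FPKM in vehicle library 5, and Atp5s at 8.67 FPKM, the lowest of the oxonic acid group (library 4).

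In vehicle library 4 the abundant members Atp5d (169 FPKM), Cox7a2l (95.9 FPKM), Ndufa6 (277 FPKM), Ndufb9 (311.4 FPKM), Ndufs5 (190 FPKM) and Ndufv3 (106 FPKM) stood above the other 4 vehicle libraries. Uqcrc2 stood below them in vehicle library 2, at 170 FPKM. The level of the mitochondrial messenger RNAs in vehicle library 4, -0.35, stood below the other vehicle libraries.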

How the results depend on the processing

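No member passed an adjusted p of 0.05 under any alternative that allowed a test. All genes called numbered 1 with array quality weights and 0 to 1 with 1 library left out (1 without vehicle library 1). Members above 0 numbered 22 with libraries scaled to equal reads in genes, 22 with voom, and 71 without oxonic acid library 3 and vehicle library 4 (chosen after seeing the data); leaving out 1 library gave 29 to 69. Members with an unadjusted p under 0.05 numbered 0 with voom, 2 with array quality weights (Ndufa5 and Uqcrb, not Cox8b), 2 with the library-number runs as a factor and 3 without those 2 libraries, and 0 to 3 with 1 library left out. The cause was not tested. The median difference of members ran from -0.03 to 0.05. Leaving out 1 library moved the Cox4i2 to Cox4i1 difference between 0.30 and 0.66 and the Cox8b to Cox8a difference between 0.40 and 0.68. Of 932 values for 39 named members, 922 stayed within the spread between replicates (1 SD) and 10 moved beyond it. Of the 932, 121 had the other sign, and 11 genes kept their sign throughout. Leaving out 1 of 5 libraries cannot move a difference beyond that spread, and the replicate block leaves it unchanged. The 922 are therefore no measure of stability. Ndufa1 is counted among them at -0.27 with the runs as a factor, against 1.29 in the main fit.

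Deviations of same-numbered libraries had correlations of -0.01 to 0.20, 1 of 5 above 0.1. The labels do not say whether the numbers pair samples, and correlations over 5 pairs cannot exclude it. With the replicate block 0 genes were called, 1445 had an unadjusted p under 0.05 (limma) and 1 member did. Depth limits the low isoforms of complex IV, which rest on 2 to 46 reads per library.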
